A study of Mus musculus with 2 samples.

Results

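The adult globin genes *Hba-a1*, *Hba-a2*, *Hbb-bs* and *Hbb-bt*, the heme synthesis gene *Alas2* and the red cell genes *Slc4a1* and *Car2* were followed in all deposited cell barcodes of 2 single-cell RNA-seq libraries. The genes were chosen by symbol. Of the 8 symbols in the list, 7 were counted among the 32285 genes of the files, and *Ahsp*, which encodes the alpha hemoglobin stabilizing protein, was not analysed here. The cells came from mice of the genotype Clec3b.creERT2; Ai14.R26.tdTomato, in which tamoxifen-activated Cre driven by *Clec3b* permanently switches on the red fluorescent protein tdTomato, and the sort was for tdTomato. Tamoxifen was given 2 weeks before a stabilized fracture of the right femur at 6 weeks of age, and tissue was taken 3 weeks after surgery. The intact library came from the uninjured femoral diaphysis with its muscle (treatment none) and the callus library from the fracture callus (treatment fracture), each from the pooled tissue of the same 3 littermates. Each condition is therefore 1 library with no replicate, no test between conditions was possible, and all intervals are exact 95% intervals for counting error only.

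Hemoglobin is a tetramer of alpha and beta chains, each holding a heme. In maturing erythroid cells globin transcripts come to fill most of the mRNA while the nucleus is expelled and other transcripts are lost, so that a reticulocyte, the last stage that still holds RNA, carries few genes. *Alas2* encodes the erythroid form of the enzyme that starts heme synthesis, *Slc4a1* the anion exchanger band 3 of the red cell membrane, and *Car2* carbonic anhydrase II, which interconverts CO2 and bicarbonate in red cells and also serves acid secretion in osteoclasts. RNA set free by lysed cells can enter any droplet.

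The alpha genes lie on chromosome 11, *Hba-a1* at chr11:32283511-32284465 and *Hba-a2* at chr11:32296489-32297298 (mm10, plus strand). The beta genes lie on the minus strand of chromosome 7, *Hbb-bs* at chr7:103826534-103828096 and *Hbb-bt* at chr7:103812524-103813996. *Alas2* is at chrX:150547375-150570638 and *Car2* at chr3:14886273-14900770, both on the plus strand, and *Slc4a1* is at chr11:102348824-102366203 on the minus strand. These positions are whole genes of the GENCODE M21 annotation. RefSeq promoter sequence (GRCm38.p6) was matched for 5 of the 7 genes. The 150 bases before the RefSeq start are printed 5′ to 3′ on the gene's strand for *Hba-a2*, both beta genes and *Alas2*, because globin transcripts filled the globin-rich barcodes and *Alas2* was counted in nearly all of them. Capitals mark every match on either strand to TATAA (the TATA box core), to CCAAT (the CAAT box), to CACCC (bound by Krüppel-like factors) or to GATAA (bound by GATA factors), and touching or overlapping matches run together.
Hba-a2, chr11:32296342-32296491: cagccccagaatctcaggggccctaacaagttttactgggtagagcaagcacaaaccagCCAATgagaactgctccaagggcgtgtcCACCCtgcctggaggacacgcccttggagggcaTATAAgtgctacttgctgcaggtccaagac
Hbb-bs, chr7:103827929-103828078: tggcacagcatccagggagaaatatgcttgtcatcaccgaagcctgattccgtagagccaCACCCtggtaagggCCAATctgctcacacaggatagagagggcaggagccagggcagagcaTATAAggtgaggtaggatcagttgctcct
Hbb-bt, chr7:103813924-103814073: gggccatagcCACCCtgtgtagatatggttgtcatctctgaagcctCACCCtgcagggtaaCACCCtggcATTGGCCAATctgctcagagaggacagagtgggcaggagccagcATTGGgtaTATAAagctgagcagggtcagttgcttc
Alas2, chrX:150547267-150547416: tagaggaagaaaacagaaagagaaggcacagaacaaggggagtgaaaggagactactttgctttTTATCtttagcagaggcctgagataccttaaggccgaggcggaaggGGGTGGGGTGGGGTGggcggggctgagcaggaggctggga
The *Hba-a1* promoter was identical to that of *Hba-a2* in all 147 bases that the windows share, and *Hbb-bs* and *Hbb-bt* shared 106 of 149 bases (71.1%). All 4 globin windows held TATAA and CCAAT, and all 5 windows held CACCC. Among 32851 RefSeq promoters, windows of this length held TATAA in 14.2%, CCAAT in 24.5%, CACCC in 37.4% and GATAA in 13.3%. GATAA was matched only in the *Alas2* window, 86 to 82 bases before the start, on the opposite strand. Each window overlaps its gene in GENCODE M21, which places these gene starts upstream of those of RefSeq.

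The paralogs are hard to tell apart by sequence. The annotated coding sequences of *Hba-a1* and *Hba-a2* differed at 1 of 429 bases and their aligned 3′ untranslated bases at 0 of 74, and of all 90-base windows in the last 400 bases, 71.1% of *Hba-a1* and 65.9% of *Hba-a2* occurred unchanged in the other gene. *Hbb-bs* and *Hbb-bt* differed at 1 of 444 coding bases and at 36 of 129 aligned 3′ untranslated bases, and 48.9% and 48.6% of such windows were shared. The split of unique molecular identifiers (UMIs, the molecule counts) within each pair is therefore uncertain, while *Hba-a1* and *Hbb-bs* share no such window. How reads that fit both genes of a pair were counted was not examined. If such reads were dropped, the sums of the pairs would be too low as well. More windows were shared within the alpha than within the beta pair, so the alpha share of globin UMIs is also uncertain.

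The intact library holds 1872 barcodes and 12112002 UMIs and the callus library 3987 barcodes and 36714322 UMIs, with a lowest total of 502 in both. A single barcode sequence occurred in both libraries, and it was globin-rich in neither. The cells are labelled as sorted bone and muscle cells, yet only 286 of 1069 typed non-erythroid barcodes of the intact and 278 of 2620 of the callus library passed the fibroblast gate (at least 3 of 6 markers). Neutrophil and B lineage barcodes numbered 284 and 277, and 576 and 599. The authors also reported hematopoietic and endothelial populations, found no meaningful tdTomato in them, took them for flow cytometry artifacts and left them out. The mice are labelled male, but among fibroblasts of at least 5000 UMIs, *Xist*, the RNA that coats a silenced X chromosome, was found in 97.5% of 199 in the intact and 98.6% of 208 in the callus library, and 4 Y-linked genes held 1 and 0 UMIs in all. Both libraries therefore go against that label.

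The 4 globin genes took 37.0% of all UMIs of the intact library and 6.63% of the callus library. *Hbb-bs*, the major adult beta gene, was the most counted gene of both, with 2635060 intact and 1376881 callus UMIs. In the intact library *Hba-a1*, *Hbb-bt* and *Hba-a2* followed at ranks 2, 3 and 4, and in the callus library they stood at ranks 6, 8 and 10. *Alas2* had 6475 and 4112 UMIs, *Slc4a1* 530 and 2784, and *Car2* 1806 and 7083. *Slc4a1* and *Car2* thus had more UMIs in the callus library, and the globins and *Alas2* fewer, although its total was larger.

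Most barcodes had either very little or very much globin. Those in which the 4 globins made up at least 20% of UMIs are called globin-rich. They numbered 550 in the intact library (29.4% of barcodes, 27.3 to 31.5) and 373 in the callus library (9.36%, 8.47 to 10.3). The median globin share was 96.6% and 93.2% within this group and 0.158% and 0.0205% outside it. Just inside the limit the lowest shares were 22.9% and 20.2%, and just outside it the highest were 7.01% and 19.4%. The intact library had 4 barcodes between 20% and 50% and 2 between 5% and 20%, whereas the callus library had 55 and 28. Of all globin UMIs, 0.274% of the intact and 1.57% of the callus library lay outside globin-rich barcodes.

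**Figure D1:**
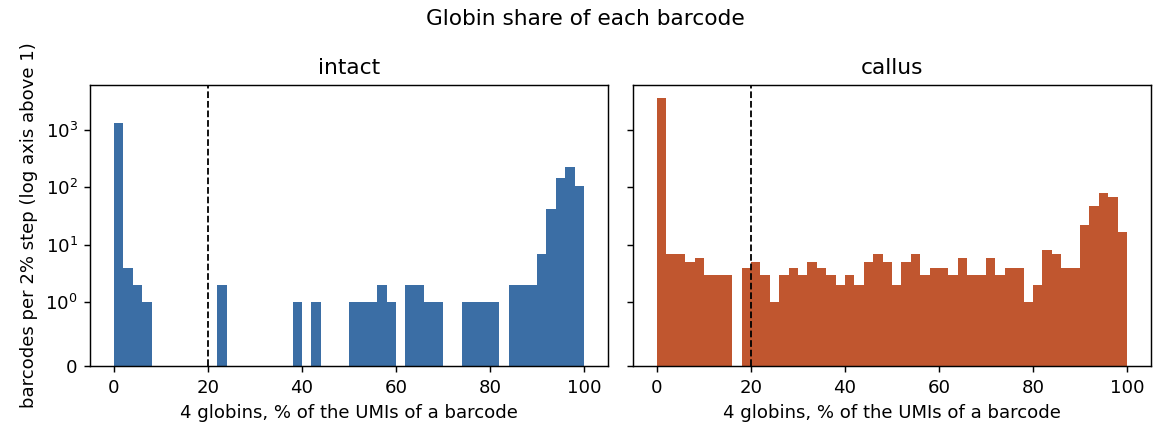
Number of barcodes (log axis above 1) by the share of their UMIs taken by the 4 globin genes, in steps of 2%, for the intact and the callus library; the dashed line marks 20%. The intact library has 524 barcodes at 90% or more and 1315 below 2%, with few between, and the callus library has 235 and 3576 with a thin scatter of barcodes between.

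Globin-rich barcodes held many molecules of few genes. Their median was 8876 UMIs over 118.5 genes in the intact and 8041 UMIs over 212 genes in the callus library, against 1472.5 and 1901 genes in the remaining barcodes. Under 250 genes were detected in 92.0% of the intact and 57.9% of the callus globin-rich barcodes. At least 500 genes were detected in 19 (3.45%) and 117 (31.4%). The globin-rich barcodes of the callus library were thus richer in genes, at a similar number of UMIs.

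Markers of other cells were present in some of them. By a gate of at least 3 of 6 markers and 2 more than any other of 13 lists, 22 intact and 117 callus globin-rich barcodes were erythroid (markers such as *Hemgn*, *Klf1*, *Ermap* and *Rhag*, none of them among the 7 genes followed). A further 4 intact barcodes passed the fibroblast and 1 the neutrophil gate, and in the callus library 3 passed the fibroblast, 4 the B lineage and 4 the neutrophil gate. In globin-rich barcodes with at least 1000 genes, fibroblast markers summed to 3463 and neutrophil markers to 4007 CPM (UMIs scaled to a total of 1000000) in the intact library and to 1290 and 3396 in the callus library, beside 2400 and 3634 for the erythroid list. With under 250 genes the same sums were 11.9, 18.3 and 122 in the intact and 16.5, 23.5 and 269 in the callus library. The gate left 523 and 245 globin-rich barcodes without a type, at median gene numbers of 115 and 158.

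In globin-rich barcodes the globin share, which chose them, went down as gene number went up, from 96.4% of UMIs with under 250 genes to 52.9% with 2000 or more in the intact library and from 95.2% to 33.6% in the callus library. Globin UMIs per barcode differed less. The median was 8408 with under 250 genes and 8616 with 2000 or more genes in the intact library (506 and 6 barcodes). In the callus library it was 7339 and 5524 (216 and 24 barcodes). The median of UMIs outside the globins was 274 and 6603 in the intact and 349.5 and 9958.5 in the callus library.

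*Alas2* was the most evenly spread of the genes outside the globins. The lowest, median and highest *Alas2* count per globin-rich barcode was 0, 11 and 34 UMIs in the intact and 0, 11 and 30 in the callus library, and 98.4% and 96.5% of globin-rich barcodes had at least 1. The medians were equal and the ranges overlapped nearly whole. Its level was 1378 CPM (1343 to 1414) with under 250 genes, 1402, 1582 and 849 in the bins starting at 250, 500 and 1000 genes, and 905 (726 to 1115) with 2000 or more in the intact library. In the callus library the same levels were 1379 (1322 to 1438), 1596, 1549, 1148 and 742 (662 to 828). The level with at least 1000 genes was 0.637 times (0.543 to 0.743) that with under 250 in the intact and 0.687 times (0.633 to 0.745) in the callus library. Mean UMIs per barcode were close, 12.8 against 11.5 and 11.3 against 10.1. Per UMI outside the globins, however, *Alas2* was at 0.0540 (0.0460 to 0.0630) and 0.0583 (0.0537 to 0.0633) of its level in the few-gene barcodes.

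*Slc4a1*, the band 3 gene, was low in the globin-rich barcodes with the fewest genes. In barcodes with under 250 genes its lowest, median and highest count was 0, 0 and 5 UMIs in the intact and 0, 0 and 8 in the callus library, and 19.4% and 38.4% of them had a UMI. In the bin from 500 to under 1000 genes it was 10, 14.5 and 21 in 6 intact and 3, 13 and 24 in 45 callus barcodes, and all of these had one. In the intact library these ranges do not overlap, and in the callus library they overlap only from 3 to 8 UMIs. The bins also differ in UMIs outside the globins, with medians of 274 and 1910.5 in the intact library. How many of all genes separate in the same way was not computed, so the separation cannot be called particular to *Slc4a1*. The level was 39.7 CPM (33.9 to 46.2), 378, 1470, 805 and 771 (607 to 967) over the 5 bins of the intact library and 123 (106 to 142), 809, 1897, 2144 and 967 (876 to 1066) over those of the callus library. With at least 1000 against under 250 genes it was 19.8-fold (15.8 to 24.9) and 12.7-fold (10.9 to 14.9) higher. Per UMI outside the globins these folds were 1.68 (1.34 to 2.11) and 1.08 (0.928 to 1.26).

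*Car2* followed a similar course over the bins. In barcodes with under 250 genes its count was 0, 0 and 29 UMIs (lowest, median and highest) in the intact and 0, 0 and 32 in the callus library, and 34.6% and 46.8% had a UMI. From 500 to under 1000 genes it was 10, 23.5 and 63, and 5, 18 and 46. Here the few-gene barcodes reached into the range of the others in both libraries. The level was 168 CPM (156 to 181), 1175, 2780, 1404 and 2046 (1772 to 2351) over the intact and 450 (417 to 484), 1788, 2853, 3265 and 2044 (1910 to 2185) over the callus bins. With at least 1000 against under 250 genes it was 10.3-fold (9.03 to 11.8) and 5.92-fold (5.44 to 6.45) higher per UMI. Per UMI outside the globins the direction turned, to 0.874 (0.765 to 0.998) and 0.502 (0.462 to 0.547).

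**Figure D2:**
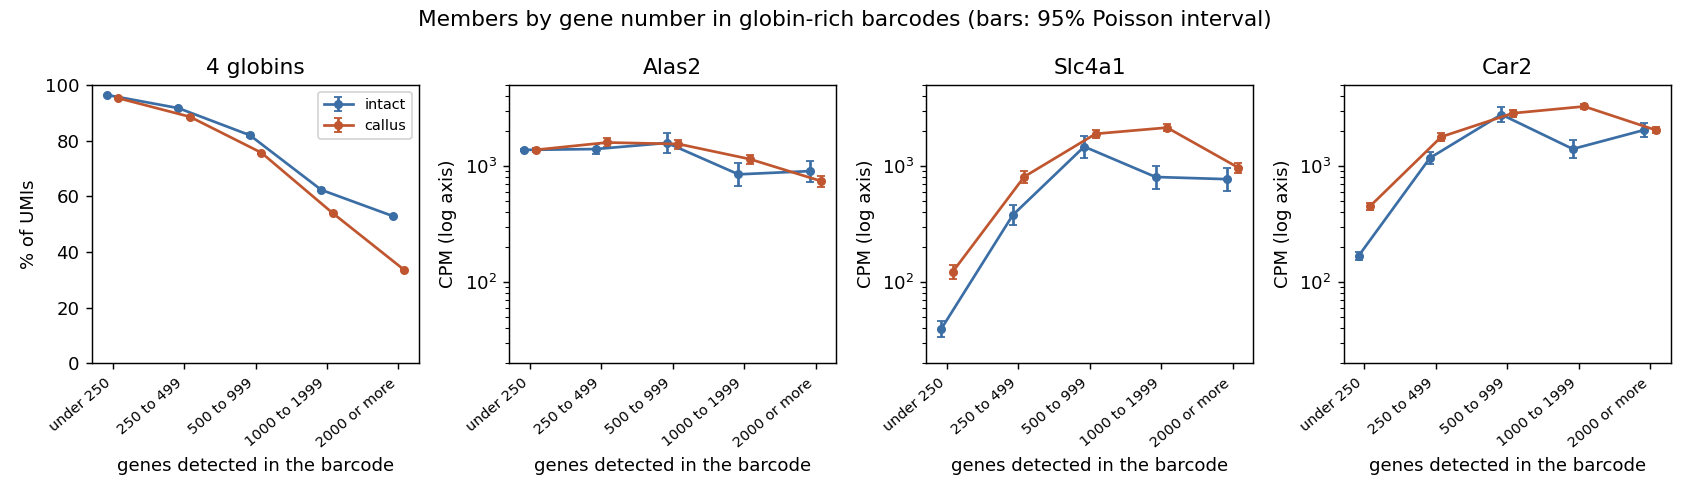
Level of the summed globins (% of UMIs) and of *Alas2*, *Slc4a1* and *Car2* (CPM, log axis) in globin-rich barcodes by the number of genes detected, in the intact and callus library; bars are 95% Poisson intervals. *Alas2* stays between 742 and 1596 CPM in all bins of both libraries, whereas *Slc4a1* spans 39.7 to 2144 and *Car2* 168 to 3265.

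Because a barcode with few detected genes must lack most genes, the share of barcodes with a UMI moves with gene number by construction. Levels per all UMIs are tied to gene number too, because UMIs outside the globins are a larger part of the total with many genes. The median mitochondrial share also moved with gene number, from 0.0545% to 0.670% in the intact and from 0.0896% to 1.01% in the callus library, and its part in these levels was not tested. When globin-rich barcodes gated to another type were left out, the many-gene levels were 2357 CPM for *Car2* and 1012 CPM for *Slc4a1* in 9 intact barcodes, and 3296 and 1938 in 61 callus barcodes, all above those with these barcodes. All globin-rich barcodes gated to another type, at any gene number, had *Alas2* at 737 CPM (538 to 986) in 5 intact and 972 (831 to 1129) in 11 callus barcodes. These levels were close to the 878 and 948 CPM of all globin-rich barcodes with at least 1000 genes. *Slc4a1* was at 197 and 114 and *Car2* at 147 and 206 CPM in the barcodes gated to another type, below the 788 and 1565, and 1734 and 2664, of all those with at least 1000 genes.

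The pathway genes were read in the same contrast, globin-rich barcodes of at least 1000 against under 250 genes, per UMI outside the globins and with at least 20 UMIs in all. This contrast was chosen with the data in view. The many-gene group held only 13 intact and 72 callus barcodes, and 5 of the 13 passed the erythroid gate. In these 13, fibroblast (3463 CPM) and neutrophil markers (4007 CPM) summed to more than erythroid markers (2400 CPM). The folds therefore compare mixed barcodes and are not read as stages of red cells. Genes scarce with few genes, such as *Cpox*, *Rhd*, *Klf1* and *Hp*, were counted only through the many-gene barcodes. Of all 966 genes counted in the intact library 56.4% were at least 2-fold higher and 20.3% at least 2-fold lower with many genes, and of 3666 in the callus library 59.1% and 5.73%, with median log2 ratios of 1.47 and 1.36. The median therefore lies well above 0, and list counts are set beside it. The median gene was thus more than 2-fold higher with many genes on this scale. The ratios of *Slc4a1* (1.68 and 1.08), *Car2* (0.874 and 0.502) and *Alas2* (0.0540 and 0.0583) all lay below it.

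Heme synthesis enzymes were mostly higher in the barcodes with many genes. Of 8 enzymes, 6 were counted in the intact library, 5 higher and 1 lower (median log2 3.93), and 7 in the callus library, 5 higher and 1 lower (median 4.12). *Cpox*, coproporphyrinogen oxidase, had 2 UMIs with few and 55 with many genes in the intact and 3 and 514 in the callus library. *Urod*, uroporphyrinogen decarboxylase, was 2.44-fold (1.56 to 3.86) higher in the intact library and at 1.38 times in the callus library, with an interval that includes 1. The enzyme at the end of the path lay on the other side. *Fech*, ferrochelatase, which inserts the iron, was at 0.168 (0.131 to 0.213) and 0.174 (0.152 to 0.199) per UMI outside the globins, although per all UMIs it was higher with many genes, at 391 against 197 CPM and 542 against 265 CPM. On this scale *Fech* lay on the side of *Alas2*, away from *Cpox*.

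Genes known from late red cell stages were mostly lower with many genes per UMI outside the globins. Per all UMIs the list was mixed, and some of its genes not named here were higher with many genes in both libraries. Of 10 such genes 8 were counted in the intact library, 0 higher and 7 lower (median log2 -3.74), and 9 in the callus library, 1 higher and 7 lower (median -4.04). *Bpgm*, which makes the 2,3-bisphosphoglycerate that lowers the oxygen affinity of hemoglobin, had 1581 CPM with few and 523 CPM with many genes in the intact and 1739 and 375 CPM in the callus library. *Mkrn1*, a ubiquitin ligase, had 1243 and 751 CPM, and 1620 and 680 CPM. Both genes were lower with many genes on both scales. *Isg20*, an exonuclease, had 344 and 333 CPM in the intact but 444 and 536 CPM in the callus library, so its direction there turned with the scale.

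Membrane and skeleton genes had a share of higher genes near that of all genes (56.4% and 59.1%). Of 11, 9 were counted in the intact library, 5 higher and 1 lower, and all 11 in the callus library, 6 higher and 2 lower. *Rhd*, a Rhesus family membrane protein, had 13 UMIs with few and 138 with many genes in the intact and 9 and 646 in the callus library. *Epb41*, protein 4.1 of the membrane skeleton, was at 0.110 (0.0855 to 0.141) and 0.0648 (0.0571 to 0.0733) per UMI outside the globins, but per all UMIs it was higher with many genes in the intact library, at 370 against 284 CPM, and lower in the callus library, at 421 against 552 CPM.

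Among transcription factors and the receptor, 2 of 7 genes were counted in the intact library, 1 higher and 0 lower, and 7 in the callus library, 6 higher and 0 lower. Of all genes, 56.4% and 59.1% were higher. All counted genes of this list but *Lmo2* reached the minimum of 20 UMIs only through the many-gene barcodes. Their direction was thus set in part by this minimum. *Klf1*, the erythroid Krüppel-like factor and also a marker of the erythroid gate, had 0 UMIs in 506 intact and 1 in 216 callus few-gene barcodes, and 29 and 153 in those with many genes. *Tal1* had 1 and 13 UMIs in the intact and 0 and 143 in the callus library, and *Zfpm1*, the GATA cofactor FOG1, 4 and 15, and 5 and 136. *Lmo2*, their LIM-domain partner, was at 1.05 (0.723 to 1.51) and 0.694 (0.517 to 0.945).

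Iron handling genes went both ways, with 2 higher and 3 lower of 6 counted in the intact and 4 higher and 3 lower of 9 in the callus library. *Ftl1*, ferritin light chain, was at 0.109 (0.0950 to 0.125) and 0.142 (0.132 to 0.152), *Slc25a37*, the mitochondrial iron importer mitoferrin, at 0.292 (0.242 to 0.350) and 0.319 (0.283 to 0.360), and *Glrx5*, an iron-sulfur cluster protein, at 0.362 (0.304 to 0.428) and 0.324 (0.287 to 0.368). *Fth1*, ferritin heavy chain, was at 0.604 (0.549 to 0.665) and 0.592 (0.551 to 0.636). All 4 were higher with many genes when counted per all UMIs, as 3013 against 422 CPM for *Fth1* in the intact library. Of the heme breakdown list, 2 and 4 of 7 genes were counted, 1 and 2 higher and 0 lower. *Blvrb*, biliverdin reductase B, was at 0.678 (0.579 to 0.792) and 0.564 (0.498 to 0.639), although per all UMIs it was higher with many genes, at 1174 against 147 and 1381 against 208 CPM, and *Hp*, haptoglobin, had 28 and 85 UMIs with many genes against 2 and 3. *Hp* had 0 UMIs in the marker-gated erythroid barcodes of the intact library and 498 CPM in its non-erythroid types. Leaving out barcodes gated to another type gave counts of 5 higher and 1 lower for heme enzymes in both libraries. For late genes they were 0 higher and 7 lower in the intact and 2 higher and 7 lower in the callus library. Of all genes, 52.8% were then higher and 24.5% lower in the intact and 64.5% and 6.69% in the callus library.

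Minor globins were rare and embryonic ones nearly uncounted. Of 6 genes 2 were counted in each library, 0 higher and 1 lower in the intact and 0 higher and 2 lower in the callus library. *Hbq1b* and *Hbq1a*, the theta globin genes, had 61 and 75 UMIs in few-gene and 17 and 1 in many-gene intact barcodes, and 40 and 38, and 79 and 5, in the callus library. Per all UMIs *Hbq1b* was higher with many genes, at 89.9 against 14.5 CPM in the intact and 92.5 against 25.4 CPM in the callus library. *Hbq1a* was lower with many genes on this scale too, at 5.29 against 17.8 and 5.85 against 24.1 CPM. *Hbb-bh1*, an embryonic beta-like gene, had 4 UMIs in few-gene intact and 1 in few-gene callus barcodes, and *Hbb-y* 0 and 1. Next to 4055968 UMIs of the adult globins in the same intact barcodes these are counts in single figures.

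Summed over globin-rich barcodes, the composition of the globin UMIs differed little between the libraries. In globin-rich barcodes *Hbb-bs* held 58.8% of globin UMIs in the intact and 56.6% in the callus library, *Hba-a1* 15.6% and 16.7%, *Hbb-bt* 13.9% and 14.6%, and *Hba-a2* 11.7% and 12.2%. The alpha genes together held 27.3% (27.3 to 27.4) and 28.9% (28.8 to 28.9). Single barcodes varied more than that, with a 5th, median and 95th percentile of 20.9%, 27.2% and 32.6% in the intact and 23.9%, 28.8% and 35.3% in the callus library, so the libraries overlap widely. Summed over barcodes, *Hba-a2* was 42.9% (42.8 to 43.0) of the alpha UMIs with under 250 genes and 38.5% (37.6 to 39.3) with 2000 or more in the intact library. The median barcode was not lower there, at 42.9% and 43.8% over the 6 barcodes with most genes, so the sum and the median go different ways. In the callus library the sum was 43.6% (43.5 to 43.8) and 36.8% (36.3 to 37.3), and the median barcode 43.6% and 36.0%. *Hbb-bt* was 18.8% (18.7 to 18.8) of the beta UMIs with under 250 genes, 23.2% (23.0 to 23.4) from 250 to under 500 and 20.98% (20.6 to 21.4) with 2000 or more in the intact library, and 19.4%, 22.9% and 23.1% in the callus library. In single barcodes the 5th, median and 95th percentile were 4.71%, 18.7% and 25.3% with under 250 genes in the intact library. From 250 to under 500 genes they were 19.2%, 23.0% and 28.3%. In the callus library the same values were 1.85%, 19.9% and 25.9%, and 16.8%, 23.4% and 27.7%. Some barcodes with few genes thus had little *Hbb-bt*, which the sums do not show.

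**Figure D3:**
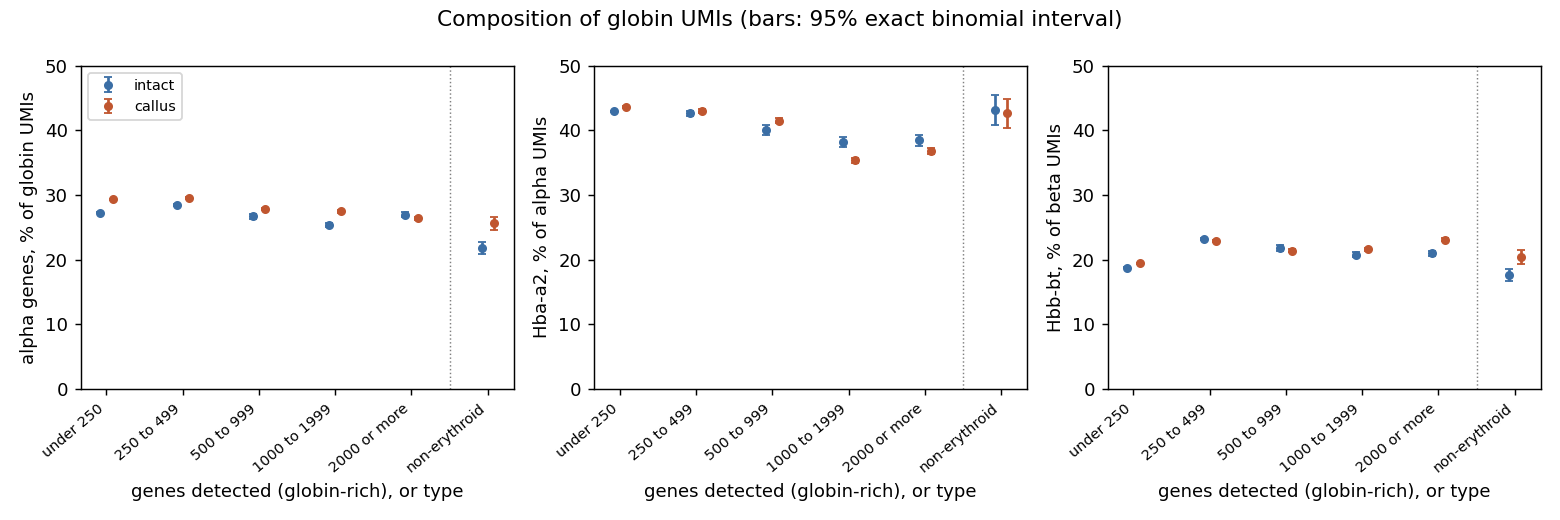
Share of the alpha genes among globin UMIs, of *Hba-a2* among alpha UMIs and of *Hbb-bt* among beta UMIs in globin-rich barcodes by gene number and in all non-erythroid types, for both libraries; bars are 95% binomial intervals. *Hba-a2* is at 42.9% and 43.6% in the bin with fewest and at 38.5% and 36.8% in that with most genes, and at 43.1% and 42.6% in the non-erythroid types; these are sums over barcodes, and the median of the 6 intact barcodes with most genes is 43.8%.

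The marker gate, which uses none of these genes, found 24 erythroid barcodes in the intact and 150 in the callus library. Globins took 65.3% and 43.4% of their UMIs. *Car2* was the highest of the other members, at 2140 CPM (1974 to 2316) and 3301 (3205 to 3400). *Alas2* was at 1152 (1031 to 1283) and 916 (866 to 969), and *Slc4a1* at 891 (785 to 1007) and 1679 (1610 to 1749). With 4 of 6 markers in place of 3, *Alas2* and *Slc4a1* in the intact library were at 981 and 1056 CPM, so their order there rests on the gate. The lowest, median and highest *Car2* count was 0, 17 and 119 UMIs in the intact and 1, 25.5 and 105 in the callus library. With 2 of 6 markers *Slc4a1* was at 539 CPM in the intact library. Neutrophil markers summed to 13.9 CPM in the intact and 673 CPM in the callus erythroid barcodes (2 and 6 of 6 markers with a UMI), and their part in these levels was not tested.

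Gated erythroid barcodes with little globin were seen mainly in the callus library. Of its 150, 33 were below the 20% limit, and these had a median of 2390 genes, a median mitochondrial share of 4.21% (0.474% in the other 117) and globin at 5.04% of their UMIs. The part of the mitochondrial share in these levels was not tested. Their globin counts ran from 5 over a median of 188 to 5282 UMIs. All 33 carried *Car2*, at 2954 CPM (2791 to 3124), with a lowest, median and highest count of 1, 28 and 105. *Slc4a1* was at 674 CPM (597 to 757) with a UMI in 26, and *Alas2* at 209 (168 to 258) with a UMI in 21. The globin-rich gated barcodes were at 3456, 2128 and 1232 CPM for *Car2*, *Slc4a1* and *Alas2*. The groups were divided by globin share, and scaled to 1000000 UMIs outside the globins *Car2* was at 3111 in the 33 and 8757 in the 117, *Slc4a1* at 709 and 5391, and *Alas2* at 220 and 3120. In these 33 barcodes *Hba-a2* was 27.4% (26.2 to 28.5) of alpha UMIs and *Hbb-bt* 27.3% (26.6 to 28.0) of beta UMIs, the lowest and the highest of the callus groups with at least 1000 globin UMIs. The intact library had 2 such barcodes, with 10 and 2118 globin UMIs, so its shares of 21.5% and 51.9% rest almost wholly on 1 barcode.

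Globin in marker-gated non-erythroid barcodes was read as free RNA. These barcodes had at least 500 genes, at most 10% mitochondrial UMIs and under 20% globin, and numbered 1069 in the intact and 2620 in the callus library. In the intact library globin was in 1064 of them. The median was 7 UMIs in each of the 7 types with at least 20 barcodes, from fibroblasts over neutrophils and B lineage cells to endothelial cells, and the type means lay between 6.89 and 8.18 UMIs, a 1.19-fold range. The median depth of the same types ran from 2463 to 7410.5 UMIs. Globin in CPM accordingly ran from 976 CPM in monocyte-macrophages to 2686 CPM in endothelial cells. When these barcodes were divided into 4 parts of equal size by depth, the mean was 7.11 globin UMIs in the shallowest, at a median depth of 2320 UMIs, and 8.17 in the deepest, at 9694. The number of globin UMIs per droplet was thus nearly the same in these 7 types.

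The callus library had less. Its medians were 1 to 3 UMIs in the 10 types with at least 20 barcodes, and 22.8% of their 2610 barcodes had none, against 0.483% of 1036 in the intact library. Summed over non-erythroid types, globin stood at 290 CPM (283 to 297), against 1294 CPM (1266 to 1322) in the intact library. The callus level was 0.224 times (0.217 to 0.231) the intact level. Depth enters this ratio of CPM. Per barcode, in the types with at least 20 barcodes, the means were closer, at 2.80 globin UMIs in the callus and 7.66 in the intact library. The medians of the same barcodes were 1 and 7 and thus not closer. A few callus barcodes with much globin, given below, raise the callus mean. Without leaving out globin-rich barcodes the summed levels were 3348 and 5955 CPM, since the few such barcodes hold most of the globin. Means were uneven in the callus library, from 1.04 in myofiber to 10.0 in granulocyte-monocyte progenitor barcodes. In the latter 1 barcode held 1070 of 2342 globin UMIs, and without it the mean was 5.46 and the level 167 in place of 306 CPM. The highest neutrophil count was 188 UMIs. In basophil-mast barcodes the level was 708 CPM, and 354 CPM without the highest of 26 barcodes. Over the same 4 parts by depth, the callus mean was 1.27 globin UMIs in the shallowest and 5.67 in the deepest, at median depths of 2382 and 19194 UMIs, while the medians were 1 and 2.

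**Figure D4:**
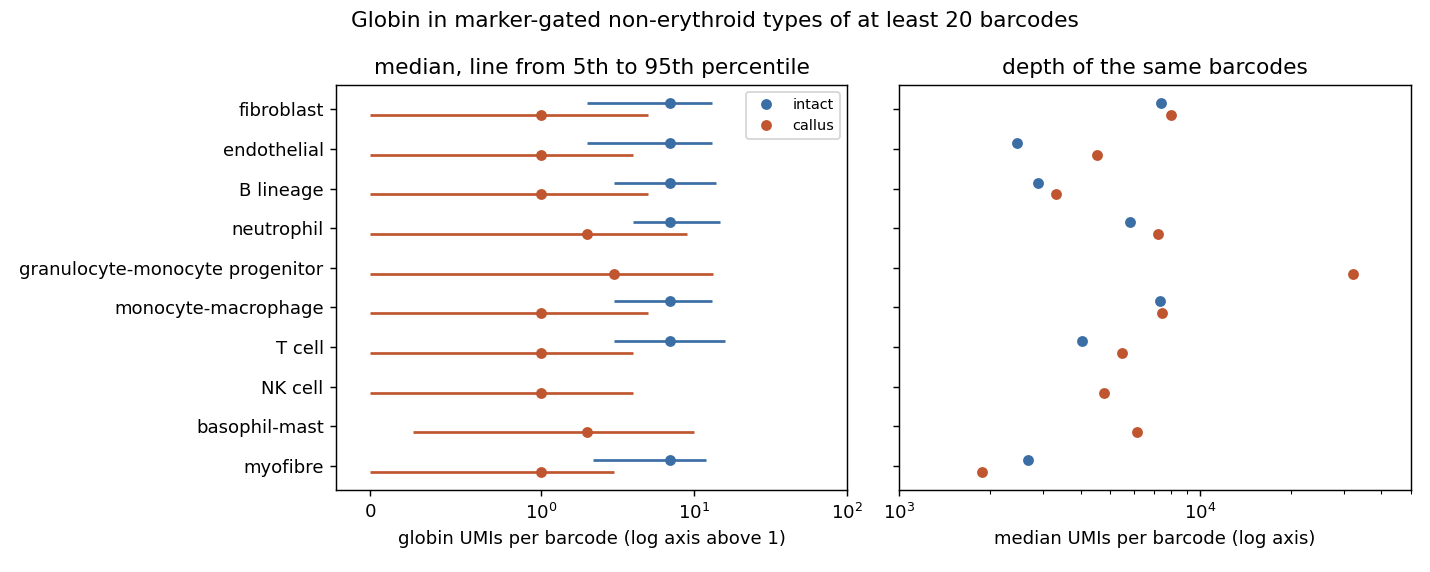
Left, globin UMIs per barcode (log axis above 1) in each marker-gated non-erythroid type of at least 20 barcodes, as median with a line from the 5th to the 95th percentile; right, the median UMIs per barcode of the same barcodes (log axis). All intact medians are at 7 and those of the callus library at 1 to 3, while depth spans 2463 to 7410.5 in the intact and 1887 to 32242 in the callus library.

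Thinning each barcode to 1000 UMIs turned the even counts into uneven shares. In the intact library a globin UMI remained in 61.6% of fibroblasts (55.6 to 67.3, 281 barcodes), 71.8% of neutrophils and 92.3% of 26 endothelial barcodes, from 98.3%, 100% and 100% before thinning. In the callus library it remained in 21.4% of fibroblasts, 22.6% of neutrophils and 8.62% of granulocyte-monocyte progenitors, from 72.7%, 79.9% and 93.6%. Among types of at least 20 barcodes the deepest had the lowest share in both libraries, and myofibers, the shallowest of the callus library, had its highest (38.6%).

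Summed over the non-erythroid types, the free globin had less alpha than the globin-rich barcodes, but not every type did. Alpha genes were 21.8% (20.9 to 22.7) of globin UMIs in the non-erythroid types of the intact library, below all 5 of its globin-rich bins (25.4% to 28.4%). In the callus library they were 25.6% (24.6 to 26.6), against 26.4% to 29.5% in the bins, so that the interval includes the lowest bin. Intact fibroblasts had 20.02% (18.3 to 21.8), B lineage cells 22.7% (20.9 to 24.5) and neutrophils 22.8% (21.1 to 24.5), but NK cells 28.7% (19.5 to 39.4). Callus B lineage cells had 24.7% (22.1 to 27.4) and neutrophils 25.9% (23.9 to 28.0). Callus fibroblasts, at 28.1% (24.2 to 32.4), and NK cells, at 31.9% (24.1 to 40.4), had intervals that include all callus bins. The callus sum also holds 1 progenitor barcode with 1070 globin UMIs. *Hba-a2* was 43.1% (40.8 to 45.4) of alpha UMIs in the intact and 42.6% (40.4 to 44.9) in the callus non-erythroid types.

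*Alas2* and *Slc4a1* were close to 0 outside the erythroid barcodes. *Alas2* had 13 UMIs over the 1069 intact and 18 over the 2620 callus non-erythroid barcodes. For 1000 globin UMIs this was 1.58 (0.841 to 2.70) and 2.45 (1.45 to 3.88), against 1.44 and 1.66 in globin-rich barcodes, which both intervals include. *Slc4a1* had 2 and 29 UMIs, or 0.243 (0.0294 to 0.878) and 3.95 (2.65 to 5.68) for 1000 globin UMIs, against 0.115 and 0.994. Of the 29 callus UMIs, 18 lay in granulocyte-monocyte progenitors, 14 of them in 1 barcode.

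*Car2* was different, and in some types outside the red cell barcodes it exceeded its ratio to globin in globin-rich barcodes. The source of these UMIs was not tested. In natural killer (NK) cells it stood at 340 CPM (194 to 552) in the intact and 338 (285 to 397) in the callus library, with a UMI in 5 of 11 and 58 of 81 barcodes and highest counts of 8 UMIs in both. In the intact library 8 of its 16 UMIs came from 1 barcode. At the ratio of *Car2* to globin in globin-rich barcodes, the globin UMIs of the callus NK cells would bring 0.251 *Car2* UMIs, and 148 were counted. All 9 callus osteoclast barcodes carried it, from 1 over a median of 8 to 54 UMIs, at 475 CPM (398 to 563), and 40.6% of these UMIs lay in the barcode with 54. B lineage cells had 46.6 CPM (34.4 to 61.8) and 100.1 (90.4 to 110.6), in 25 of 277 and 142 of 599 barcodes. Granulocyte-monocyte progenitors had 59.3 (37.2 to 89.8) and 19.6 (16.6 to 23.0). T cells, by contrast, had 8.28 and 4.12 CPM, from 1 and 2 UMIs. Neutrophils had 0.550 and 1.16 CPM. Fibroblasts had 0 UMIs over 286 intact barcodes, where 3 UMIs would be 1.48 CPM, and 15.3 CPM (10.98 to 20.7) in the callus library, from 41 UMIs in 15 of 278 barcodes. Thinned to 1000 UMIs, 0 of 276 callus fibroblast barcodes kept one. The paper found osteoblasts and marrow stromal cells in the callus only, and no marker list separated these from fibroblasts here.

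Leaving aside a single megakaryocyte-platelet barcode with 13 UMIs, the order of *Car2* levels in the callus library was erythroid, osteoclast, NK, B lineage, granulocyte-monocyte progenitor and fibroblast, with basophil-mast, myofiber, endothelial, T, monocyte-macrophage and neutrophil barcodes below. Osteoclasts and NK cells are not ranked here, since 1 of 9 barcodes carries much of the osteoclast count, and the intervals of progenitors and fibroblasts overlapped. At 1000 UMIs per barcode, *Car2* was in 25.9% of 81 NK cells (from 71.6% unthinned), 6.53% of 597 B lineage cells (from 23.7%) and 2.15% of 232 progenitors (from 32.1%) in the callus library. Neutrophils, at a higher median depth (7224 UMIs, against 4802 for NK cells), had it in 0 of 576, which at this thinned depth allows a share of up to 0.521%, and in 6 of 576 (1.04%) unthinned. In the intact library it was in 1 of 10 NK cells, 2.18% of 275 B lineage cells and 0 of 284 neutrophils, which at this depth allows up to 1.06%, and in 1 of 284 neutrophils unthinned.

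**Figure D5:**
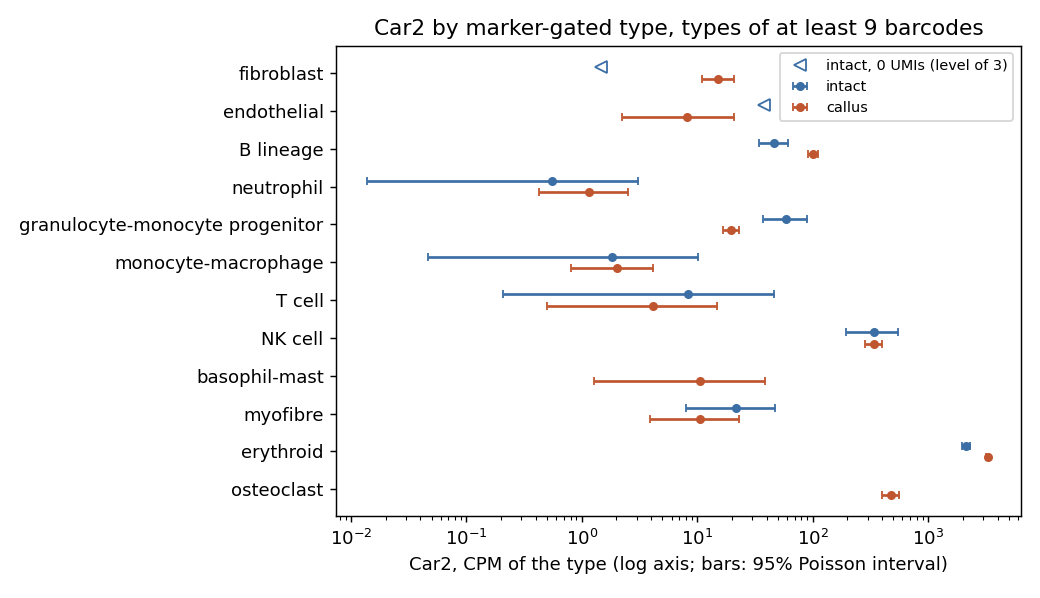
*Car2* level (CPM, log axis) in each marker-gated type of at least 9 barcodes in the intact and callus library, with 95% Poisson intervals; open triangles mark types with 0 UMIs at the level of 3 UMIs. Erythroid barcodes are highest at 2140 and 3301 CPM, followed by osteoclasts (475) and NK cells (340 and 338), while neutrophils are near 1.

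Callus and intact libraries were then set side by side within barcodes of the same gene-number bin or gate. For the globin-rich bins the ratios of all genes were not computed, so those of the members stand without a background. Among globin-rich barcodes with under 250 genes, *Alas2* was at 1.00 times (0.953 to 1.05) its intact level per UMI and at 0.758 times (0.721 to 0.796) per UMI outside the globins. *Slc4a1* was 3.10-fold (2.51 to 3.83) and *Car2* 2.68-fold (2.41 to 2.98) higher in the callus library, and 2.34-fold (1.90 to 2.90) and 2.03-fold (1.82 to 2.25) per UMI outside the globins. The globins themselves differed by at most 1.08-fold (*Hba-a2*). With at least 1000 genes *Alas2* was at 1.08 times (0.913 to 1.28), *Slc4a1* at 1.99 (1.68 to 2.37) and *Car2* at 1.54 (1.37 to 1.73), and at 0.819, 1.51 and 1.16 per UMI outside the globins. The *Alas2* interval includes 1 on the first scale and lies below 1 on the second (0.692 to 0.974).

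In marker-gated erythroid barcodes the ratios of callus over intact were 0.664 (0.661 to 0.668) for the summed globins, 0.795 (0.704 to 0.901) for *Alas2*, 1.88 (1.66 to 2.15) for *Slc4a1* and 1.54 (1.42 to 1.68) for *Car2*. Of 4791 genes with at least 20 UMIs, 46.1% were at least 2-fold higher and 0.835% at least 2-fold lower in the callus library, with a median log2 ratio of 0.92, so ratios near 2 are close to the middle of all genes. Per UMI outside the globins 19.3% were higher and 4.17% lower, the median was 0.21, and the ratios were 0.487 (0.431 to 0.552) for *Alas2*, 1.15 (1.01 to 1.32) for *Slc4a1* and 0.945 (0.868 to 1.03) for *Car2*. *Car2* was thus higher in the callus library on the first scale only, and on the second its interval includes 1. None of these 3 genes was 2-fold higher on either scale, and only *Alas2*, on the second, was past 2-fold lower. The gated globin-rich barcodes of the callus library also had more genes, with a median of 873 against 487. Within gated barcodes of under 1000 genes (17 intact and 75 callus), *Slc4a1* was at 898 CPM (759 to 1055) in the intact and 1959 (1826 to 2098) in the callus library, *Car2* at 1535 (1352 to 1736) and 2863 (2702 to 3031), and *Alas2* at 1596 (1409 to 1800) and 1500 (1385 to 1623). From 1000 to under 2000 genes (4 and 43 barcodes) *Slc4a1* was at 1520 (1191 to 1911) and 2531 (2370 to 2700) and *Car2* at 2624 (2185 to 3124) and 3874 (3674 to 4082). Per UMI outside the globins *Car2* with under 1000 genes was at 12002 and 11828, with overlapping intervals. *Slc4a1* was there at 7021 (5935 to 8247) and 8092 (7544 to 8670), which also overlap. *Alas2* was lower in the callus library, at 12476 (11014 to 14079) and 6199 (5721 to 6708). From 1000 to under 2000 genes *Slc4a1* was at 4329 and 5362 on this scale, *Car2* at 7472 and 8207 and *Alas2* at 2372 and 2295. The intervals of each gene overlapped there. No ratios of all genes are given for these bins.

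Of the pathway lists in this comparison, late red cell genes had the lowest median among the lists with at least 3 genes counted, log2 0.06 per UMI and -0.65 per UMI outside the globins, against 0.92 and 0.21 for all genes. *Bpgm* was at 0.530 (0.461 to 0.611) and 0.325 (0.283 to 0.374), and *Mkrn1* at 0.894 and 0.548. Heme synthesis enzymes had 2 of 7 at least 2-fold higher per UMI and 0 of 7 per UMI outside the globins (medians 0.66 and -0.05). *Cpox* was at 2.48 (1.96 to 3.17) and 1.52. Membrane genes had 6 of 11 and 1 of 11 higher. Iron genes had 4 and 1 of 9 higher and transcription factors 2 and 0 of 7, with 0 lower in these lists on either scale.

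Over the 19 types of at least 20 barcodes in the 2 libraries, the genes most like the summed globins in log2(CPM + 1) were *Hbq1b* (r = 0.93), *Hbq1a*, *F930017D23Rik*, *Slc38a5* and *Asb17os*. Those most like *Alas2* were *Car1* (r = 0.98), *Hbq1b*, *Hbq1a*, *Ermap* and *F930017D23Rik*, where *Car1* is a further carbonic anhydrase of red cells. Those most like *Car2* were *Alad* (r = 0.86), *Art4*, *1300017J02Rik*, *Tfdp2* and *Cpox*, and *Alad* encodes the heme synthesis enzyme that follows *Alas2*. These correlations were computed for 12118 genes, and their points share 2 libraries. The erythroid barcodes gave 1 point per library, far above the other types in globin and *Alas2*, so these 2 points weigh heavily in r. Some named genes had few UMIs, such as *Asb17os* with 126 over all barcodes. With a pseudocount of 10 in place of 1, the 5 genes named shared 1 gene for the globins, 2 for *Alas2* and 4 for *Car2*, so the order among the first genes is not settled.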

How the data were processed

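Transcripts of cells sorted for tdTomato were counted per cell with the 10× Chromium 3′ kit V3 in 2 libraries, intact and callus. The authors deposited raw UMI counts per gene and barcode from Cell Ranger (version 6.0.0 in the file header), without normalization, on build mm10 per the labels; the annotation used for counting is not given in the sources used here. Because a 3′ kit counts transcript ends, levels were not divided by gene length. All 5859 deposited barcodes were used. Levels are UMIs of a gene over all UMIs of the barcodes summed, scaled to 1000000 (CPM). Exact 95% intervals were Poisson for levels, Clopper-Pearson for shares and conditional binomial for ratios, and they hold counting error alone because 1 library per condition leaves no replicate error. A count of 0 was given the limit of 3 counts.

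The globin limit (20%), the marker gate and the thinning depth (1000 UMIs, seed 0) are given with the results. No doublet caller was run; globin-rich barcodes with markers of another type were counted and left out as an alternative. The gene rows, pathway lists and marker lists were chosen with earlier results of these data known. The text names the members, up to 4 genes of each pathway list with the most UMIs in gated erythroid barcodes, and the 5 genes most alike for the globins, *Alas2* and *Car2*; some genes that this rule names are not reported here. The 2-fold limit describes these libraries and is no test, and a gene with 0 UMIs in a group entered at its bound. The alternatives were another globin limit, 2 or 4 markers, other barcode filters, gene numbers without the members, another thinning depth, denominator, UMI minimum or pseudocount. Alternatives added after seeing the data were leaving out the barcode with most globin of each type, leaving out globin-rich barcodes of another type, a minimum of 1000 UMIs, and UMIs outside the globins as denominator for the gene bins. Positions came from GENCODE M21 (99.8% of gene identifiers matched) and promoters from RefSeq (GRCm38.p6). The fold and interval steps were tested on simulated data. Tools were python 3.11.15, numpy 2.4.6, scipy 1.17.1, pandas 2.3.3 and matplotlib 3.10.9.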

Additional observations from a re-analysis of the deposited data

How the results depend on the processing

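No replicate was left out, because each condition is 1 library, and no paired analysis was possible because each group has 1 sample and no result comes from a test between replicates. Over the results and alternatives run, 40 values moved, 3 turned direction and 47 did neither, judged by the counting interval of the main value or, for shares of genes and correlations, which have none, by a set tolerance. A turn was judged by the side of 1 on which the new ratio lay. The interval of the turned *Car2* ratio of callus over intact (0.868 to 1.03) includes 1. With UMIs outside the 4 globins as denominator, levels with at least 1000 over under 250 genes were 0.0540 and 0.0583 for *Alas2*, 1.68 and 1.08 for *Slc4a1* and, reversed, 0.874 and 0.502 for *Car2* (intact, then callus, here and below), and callus over intact in gated erythroid barcodes was 0.487, 1.15 and, reversed, 0.945, with 19.3% of genes higher and 4.17% lower. By construction this denominator moves a ratio by the fold to which the share of UMIs outside the globins differs between the groups. Without barcodes gated to another type the gene-number ratios were 25.5 and 15.8 for *Slc4a1* and 14.0 and 7.32 for *Car2*. A globin limit of 50% gave 7.98% of callus barcodes, *Car2* ratios of 8.01 and 6.63 and a callus *Alas2* ratio of 0.880. With 2 of 6 markers erythroid barcodes had 79.6% and 49.7% globin, *Alas2* at 1288 and 976, *Slc4a1* at 539 and 1507 and *Car2* at 1506 and 3023 CPM. With 4 of 6 they had 53.8% and 38.7% globin, *Car2* at 2613 and 3420, and in the intact library *Alas2* at 981 and *Slc4a1* at 1056 CPM. Free globin was 5955 and 3348 CPM with no barcode left out for globin, 1357 and 297 with no barcode filter, and 233 in the callus library without the barcode with most globin of each type. Thinned to 2000 UMIs, 90.3% and 40.7% of barcodes kept a globin UMI. A minimum of 1 UMI gave 23.2% of genes higher and 5.09% lower. A pseudocount of 10 gave 0.915 for the gene most like *Car2*. Apart from those with another denominator, the cause of these differences was not tested. Depth limits the groups of few barcodes, such as 6 with at least 2000 genes in the intact library.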
